A study of Mus musculus with 9 samples.

Results

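Regulatory T cells (Tregs) restrain other immune cells partly through secreted and surface molecules, and the genes described here are the suppressive cytokines and effectors Il10, Ebi3, Il12a and Fgl2 together with the IL-10 receptor genes Il10ra and Il10rb. These 6 genes were chosen by name for what their products do, but with earlier results of these data known. Of them, 5 were measured, among 21023 named genes in all, and Il10rb matched no row and was not analysed here. Each of the other 5 was read from 1 row of the deposited table.

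The study compared Tregs across tissues during the resolution of acute lung injury, on Mouse Gene 2.1 ST arrays with 3 arrays per group. The groups were resolving lung (lipopolysaccharide, LPS, from Escherichia coli at 3 mg/kg, placed in the trachea), resolving spleen (the same LPS given to the lungs, spleen taken) and control lung (uninjured). All animals were C57BL/6 mice aged 8 to 12 weeks that carried the Foxp3EGFP reporter, in which Foxp3-expressing cells fluoresce green, so controls carried it too. Lungs were digested with enzymes and spleens were broken up mechanically, and lymphocytes were enriched on Percoll before CD4+ GFP+ cells were sorted. There was no uninjured spleen group, so injury and tissue cannot be told apart in the comparison of resolving spleen with control lung. Tissue and the way its cells were freed changed together, so they cannot be told apart in any comparison of lung with spleen. The sources used here gave no harvest day, sex or number of animals per array. They also do not say whether replicate arrays stand for different mice, so the p-values reflect variation among these arrays, and that variation may be technical.

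IL-10 is a cytokine that limits the activation of macrophages and dendritic cells. It binds a receptor built of the ligand-binding chain IL10RA and the shared chain IL10RB, which act through the kinases JAK1 and TYK2 and the transcription factor STAT3. EBI3 is a cytokine subunit that pairs with the Il12a product to form IL-35, and with the Il27 product to form IL-27. FGL2 (fibrinogen-like protein 2) is secreted by Tregs and acts on antigen-presenting cells through the inhibitory Fc receptor FCGR2B.

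Values are log2 expression, so a difference of 1 unit is a 2-fold change. A gene was counted as above the dim level on an array when it exceeded the 95th percentile of 915 olfactory receptor genes on that array, which lay between 3.32 and 3.52. Il10, Ebi3, Fgl2 and Il10ra exceeded it on all 9 arrays, and Il12a exceeded it on none. Differences were tested with limma across all named genes, and a gene was called changed when its two-sided Benjamini-Hochberg adjusted p was under 0.05. In sorted populations measured in bulk, fewer cells of a type and less RNA per cell cannot be told apart.

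The sorted cells carried their defining transcripts in every group. Foxp3, the lineage factor of Tregs, lay between 10.43 and 10.75 in resolving lung, between 10.66 and 10.74 in resolving spleen and between 10.63 and 10.69 in control lung. Cd4 lay between 10.82 and 11.06 on all 9 arrays, and neither gene passed the test in any comparison. Of 7 Treg and T cell identity genes, 0 passed in resolving lung against control lung or resolving lung against resolving spleen, where 0.457% and 5.46% of all genes did. In each, 2 had an unadjusted limma p under 0.05, against 14.0% and 18.8% of all genes. In resolving spleen against control lung 1 of the 7 rose, where 3.49% of all genes rose. That gene was Il2ra, the high-affinity IL-2 receptor chain, at 0.37 (limma adjusted p = 0.0364, not called in 7 of 9 omissions of an array). The first resolving lung array stood apart for transcripts of macrophages and fibroblasts. Its mean over 9 measured macrophage markers was 6.74, against 4.62 and 4.61 in the other resolving lung arrays, 4.50 to 5.43 in resolving spleen and 3.75 to 4.91 in control lung. Its mean over 6 fibroblast markers was 5.15, against 2.19 to 3.56 on the other 8 arrays. The differences of Il10, Ebi3, Fgl2 and Il10ra that involve resolving lung are given below with and without that array.

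The promoters of Fgl2 and Ebi3 are shown because these genes put the groups in different orders in the values below. The sequences are the 250 bases before the annotated start on the + strand, from RefSeq (GRCm38.p6), at chr5:21372423-21372672 for Fgl2 and chr17:55952373-55952622 for Ebi3. Capitals mark matches to the motifs named after them.
Fgl2: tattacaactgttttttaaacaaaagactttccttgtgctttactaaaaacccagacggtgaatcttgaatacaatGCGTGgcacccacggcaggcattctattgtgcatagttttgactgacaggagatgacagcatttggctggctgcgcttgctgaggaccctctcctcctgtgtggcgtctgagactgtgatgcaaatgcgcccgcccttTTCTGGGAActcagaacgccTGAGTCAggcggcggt
Ebi3: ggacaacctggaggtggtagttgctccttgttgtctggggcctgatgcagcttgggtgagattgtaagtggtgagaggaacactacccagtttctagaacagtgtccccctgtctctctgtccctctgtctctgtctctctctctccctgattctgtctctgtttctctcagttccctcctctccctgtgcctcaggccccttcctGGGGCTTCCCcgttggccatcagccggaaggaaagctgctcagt
In the Fgl2 window the capitals mark, from the 5′ end, an AHR motif (GCGTG), a STAT motif (TTCNNNGAA) and an AP-1 motif (TGANTCA), whose first bases are at positions -174, -36 and -16 counted from the start. In the Ebi3 window they mark a kappaB motif whose first base is at position -44. Both strands were searched, also for the motifs of NFIL3 (TTANNTAA) and BHLHE40 (CACGTG), which gave no match in either window, and no marked match overlaps another. Among 32851 mouse promoter windows of the same length, 28.2% held the AHR motif, 7.02% the STAT motif, 6.75% the AP-1 motif and 3.90% the kappaB motif. A match is a description of the letters and does not show that a factor binds there.

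**Figure D1:**
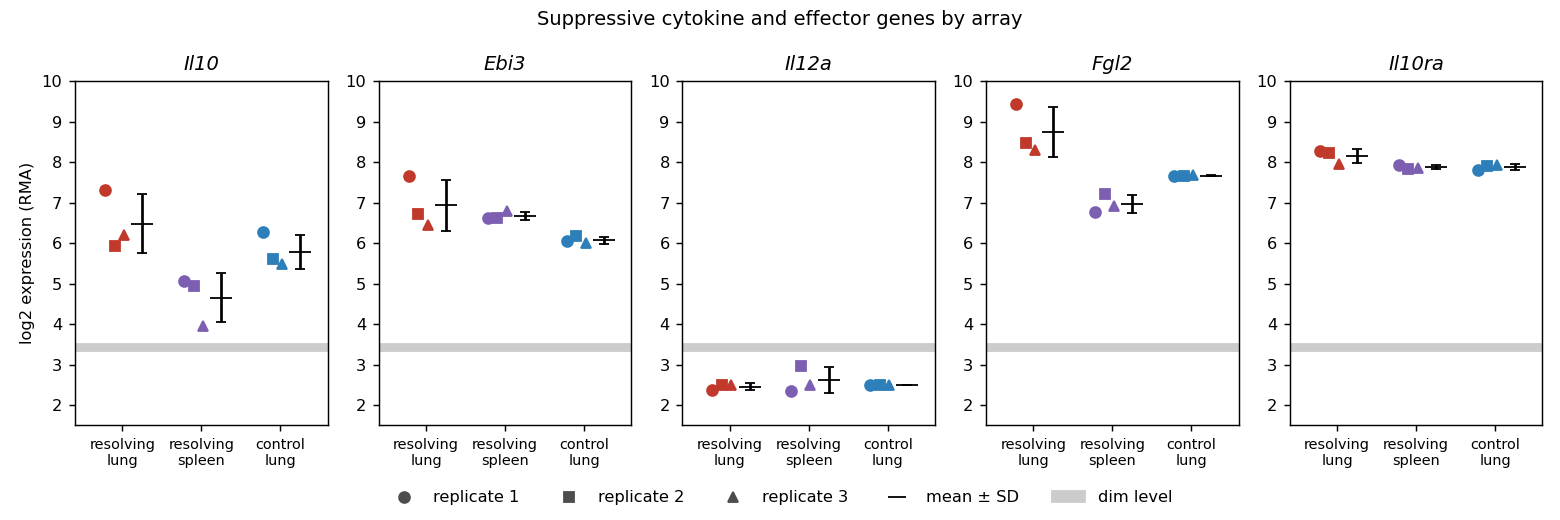
Log2 expression of the 5 measured genes (vertical axis) in resolving lung, resolving spleen and control lung, with 1 point per array, bars for the mean ± SD of 3 arrays and a grey band for the dim level. Fgl2 and Il10 were lowest in the 3 resolving spleen arrays, Ebi3 in the 3 control lung arrays, and Il12a lay at or below the dim level throughout.

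Fgl2 had the clearest differences of the 5 genes, with resolving lung highest, control lung intermediate and resolving spleen lowest. Fgl2 expression was 9.44, 8.47 and 8.30 in the resolving lung arrays, 6.77, 7.21 and 6.91 in the resolving spleen arrays and 7.65, 7.66 and 7.68 in the control lung arrays. No array of one group overlapped another group, and the nearest arrays of resolving lung and control lung were 0.62 apart. The means were 8.74 ± 0.61, 6.96 ± 0.22 and 7.66 ± 0.016 in resolving lung, resolving spleen and control lung (SD, n = 3 each).

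Fgl2 was higher in resolving lung than in resolving spleen by 1.77 (SE 0.27, 95% interval 1.16 to 2.38), a 3.42-fold difference (limma adjusted p = 0.00895, higher in 3 of 3 arrays). The call held when each of the 9 arrays was left out in turn, with adjusted p between 0.00443 and 0.0416. With the replicate number as a block it held in the fit of all 9 arrays (limma adjusted p = 0.0228). In a fit of these 2 groups alone with that block it was lost (limma adjusted p = 0.102). Against control lung the difference was 1.07 (SE 0.27, 95% interval 0.46 to 1.68), 2.10-fold, and did not pass the test (limma adjusted p = 0.128, unadjusted p = 0.0035). Between resolving spleen and control lung it was -0.70 (SE 0.27, 95% interval -1.31 to -0.09, limma adjusted p = 0.195). Without the first resolving lung array, which enters that comparison through the shared estimate of spread alone, the same difference of -0.70 passed (limma adjusted p = 0.0111).

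Il10 followed the same order of group means as Fgl2, with more spread among arrays. Il10 expression was 7.31, 5.93 and 6.19 in resolving lung, 5.06, 4.93 and 3.96 in resolving spleen and 6.26, 5.59 and 5.48 in control lung. The 3 resolving spleen arrays were the lowest of all 9, and the 2 lung groups overlapped. The means were 6.48 ± 0.73 in resolving lung, 4.65 ± 0.60 in resolving spleen and 5.78 ± 0.42 in control lung (SD, n = 3 each).

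Il10 was higher in resolving lung than in resolving spleen by 1.82 (SE 0.42, 95% interval 0.86 to 2.78), 3.54-fold, which passed the test (limma adjusted p = 0.0446, higher in 3 of 3 arrays). The call sat close to the threshold: with any 1 of the 9 arrays left out, the difference stayed between 1.41 and 2.10 and the limma adjusted p lay between 0.0550 and 0.133. The lowest of those differences, 1.41 (limma adjusted p = 0.0744), was that without the first resolving lung array. With the replicate number as a block the limma adjusted p was 0.0168 over all 9 arrays and 0.0909 over these 2 groups alone. In resolving lung against control lung the difference was 0.70 (SE 0.42, 95% interval -0.26 to 1.66, limma adjusted p = 0.509), and it was 0.28 without that array (limma adjusted p = 0.821). Resolving spleen differed from control lung by -1.12 (SE 0.42, 95% interval -2.08 to -0.16), which did not pass (limma adjusted p = 0.188), although all 3 spleen arrays lay below all 3 control lung arrays by at least 0.41.

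Ebi3 had another order, in which control lung was lowest and both groups from LPS-treated mice were higher. Ebi3 expression was 7.65, 6.71 and 6.45 in resolving lung, 6.62, 6.62 and 6.79 in resolving spleen and 6.06, 6.17 and 5.99 in control lung. Every array of resolving lung and of resolving spleen exceeded every control lung array, and the first 2 groups overlapped each other. The means were 6.94 ± 0.63 in resolving lung, 6.68 ± 0.10 in resolving spleen and 6.07 ± 0.088 in control lung (SD, n = 3 each).

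No difference of Ebi3 passed the test. It was 0.86 between resolving lung and control lung (SE 0.26, 95% interval 0.26 to 1.46, 1.82-fold, limma adjusted p = 0.194), and 0.51 without the first resolving lung array (limma adjusted p = 0.105). Between resolving lung and resolving spleen it was 0.26 (SE 0.26, 95% interval -0.34 to 0.86, limma adjusted p = 0.683), and without that array it turned to -0.10. Between resolving spleen and control lung it was 0.60 (SE 0.26, 1.52-fold, limma adjusted p = 0.265). With the first resolving lung array left out of the shared spread, the difference of 0.60 was called (limma adjusted p = 0.00919).

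The partner subunit of EBI3 in IL-35, Il12a, was not above the dim level on any array. Its values were 2.36, 2.50 and 2.50 in resolving lung, 2.35, 2.97 and 2.50 in resolving spleen and 2.50 on each control lung array. No difference is given for Il12a, because no value exceeded the dim level. Il27, whose product is the other partner of EBI3, lay between 2.14 and 2.40 on the 9 arrays and was likewise never above the dim level.

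Il10ra, the chain that binds IL-10, varied little. Il10ra expression was 8.27, 8.23 and 7.96 in resolving lung, 7.94, 7.84 and 7.85 in resolving spleen and 7.80, 7.91 and 7.94 in control lung. All resolving lung arrays lay above all others, but by only 0.019 at the nearest. The difference was 0.27 against control lung (SE 0.09, 95% interval 0.06 to 0.48, 1.20-fold, limma adjusted p = 0.236). Against resolving spleen it was 0.28 (SE 0.09, 95% interval 0.07 to 0.48, limma adjusted p = 0.140), and it passed without resolving lung replicate 3, at 0.37 (limma adjusted p = 0.0331). Resolving spleen and control lung differed by -0.01 (SE 0.09, 95% interval -0.22 to 0.20, limma adjusted p = 0.986).

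**Figure D2:**
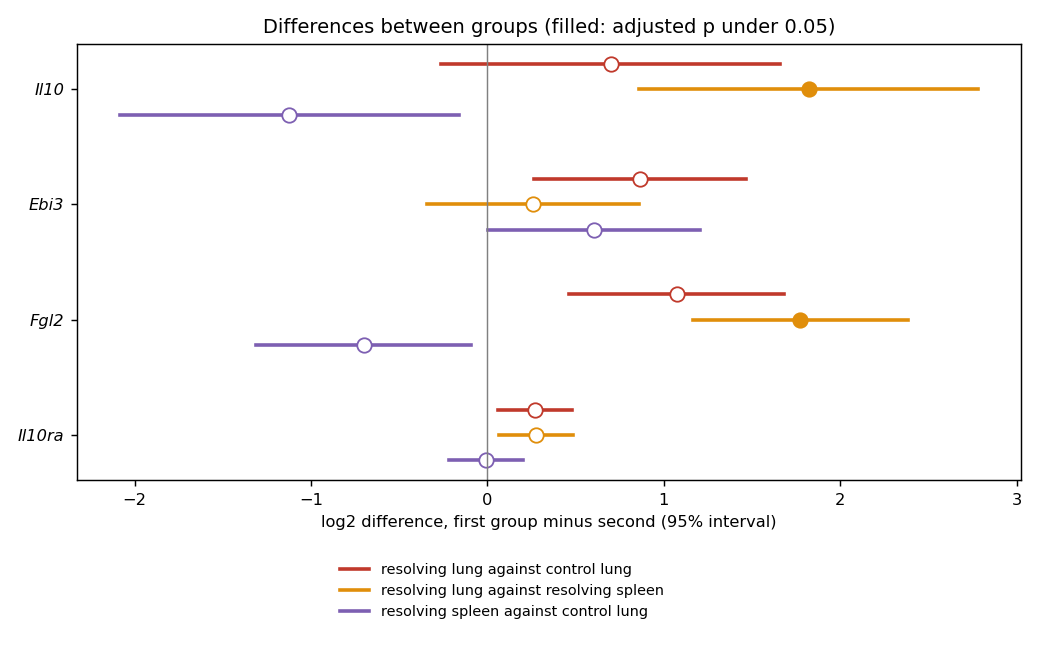
Log2 differences between groups (horizontal axis, first group minus second) of Il10, Ebi3, Fgl2 and Il10ra in the 3 comparisons, with 95% intervals from limma. Filled points passed an adjusted p of 0.05, which only Il10 (1.82) and Fgl2 (1.77) did, both in resolving lung against resolving spleen.

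Counted together, 0 of the 5 measured genes passed the test in resolving lung against control lung, where 0.457% of all named genes did. At an unadjusted limma p under 0.05 the count was 3 of 5, namely Ebi3, Fgl2 and Il10ra, all higher, against 14.0% of all genes (7.61% higher and 6.39% lower). The resolving lung arrays of these 3 lay above those of control lung with no overlap, where 16.3% of all genes did not overlap (8.79% with resolving lung above).

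In resolving lung against resolving spleen, 2 of 5 passed and both were higher, where 5.46% of all genes passed (2.64% higher and 2.82% lower). With Il10ra, 3 of 5 were higher at an unadjusted limma p under 0.05, against 8.2% of all genes. The same 3 had groups that did not overlap, against 23.1% of all genes (11.3% with resolving lung above).

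In resolving spleen against control lung 0 of 5 passed, against 6.16% of all genes (3.49% higher and 2.67% lower). There, 3 had an unadjusted limma p under 0.05, against 18.8% of all genes, with Ebi3 higher (11.2% of all genes) and Il10 and Fgl2 lower (7.55% of all genes). The groups of these 3 did not overlap, against 25.5% of all genes, of which 13.8% had the spleen arrays above.

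The median difference over the 5 was 0.70, 0.28 and -0.01 in the 3 comparisons in that order, and the median over all genes was within 0.01 of 0 in each. The comparisons share arrays pairwise, so their counts are not separate pieces of evidence.

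The same array was the highest of all 9 for Il10, Ebi3, Fgl2 and Il10ra, the first of resolving lung. It exceeded the mean of the other resolving lung arrays by 1.25 for Il10, 1.07 for Ebi3, 1.05 for Fgl2 and 0.17 for Il10ra. Without it, Fgl2 in resolving lung was 0.72 above control lung (limma adjusted p = 0.0707) and 1.42 above resolving spleen (limma adjusted p = 0.00443). For Il10ra the values without it were 0.21 (limma adjusted p = 0.461) and 0.22 (limma adjusted p = 0.285), and those of Il10 and Ebi3 are given above.

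**Figure D3:**
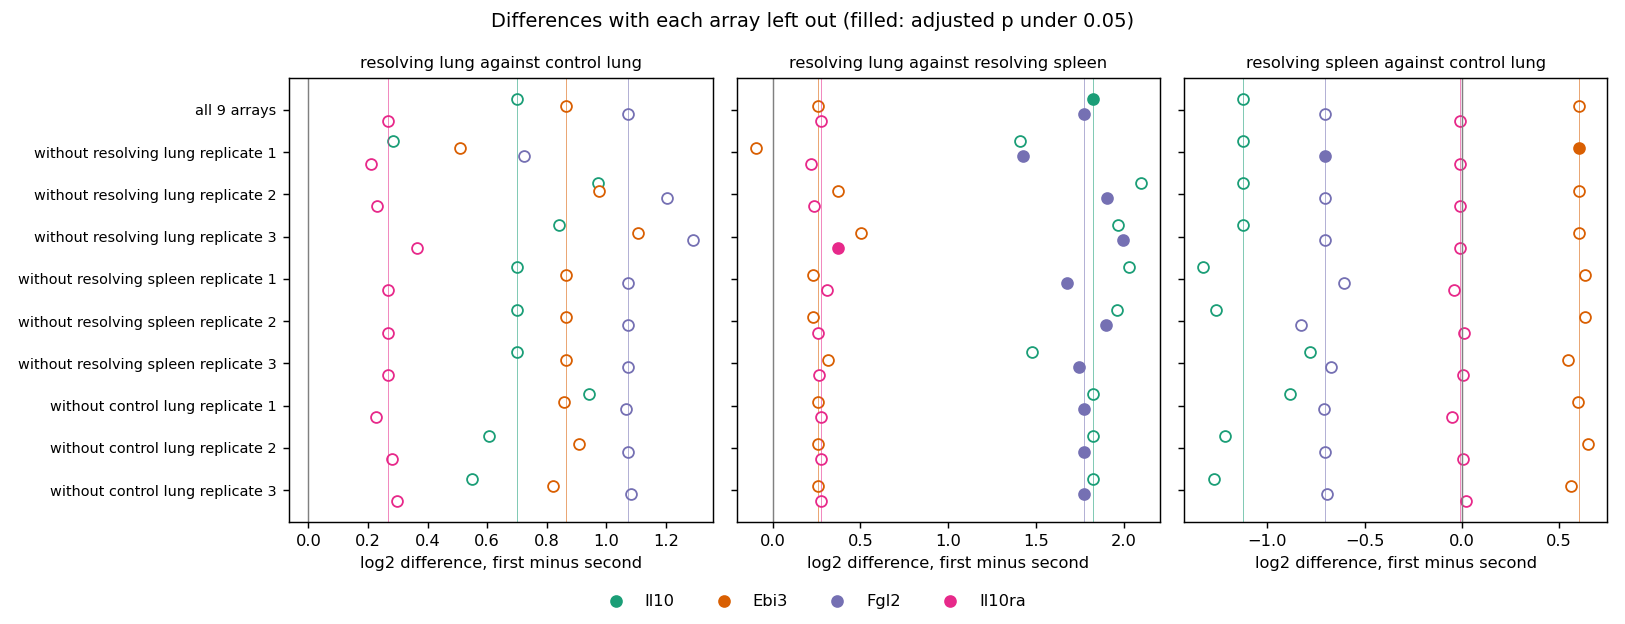
Log2 differences (horizontal axis, first group minus second) of Il10, Ebi3, Fgl2 and Il10ra with all 9 arrays and with each array left out (rows), for the 3 comparisons, where thin vertical lines mark the values with all 9 arrays. Filled points passed an adjusted p of 0.05; the Fgl2 difference between resolving lung and resolving spleen stayed between 1.42 and 1.99 and passed in every row, and that of Il10 passed only with all 9 arrays.

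Markers of several other cells stood apart on that array, in both directions. Chil3, a macrophage chitinase-like protein, was 10.02, 6.90 and 7.12 in resolving lung, 6.15, 5.29 and 4.95 in resolving spleen and 9.01, 7.51 and 6.05 in control lung. Adgre1, a macrophage surface receptor, was 7.36, 4.41 and 4.64 in resolving lung, 5.98, 4.64 and 4.64 in resolving spleen and 3.85, 3.47 and 3.11 in control lung. Csf1r, the receptor for macrophage growth factor, was 8.44, 6.16 and 6.31 in resolving lung, 7.49, 6.31 and 6.36 in resolving spleen and 5.76, 5.81 and 4.53 in control lung. Of 9 measured macrophage markers, 4 exceeded the dim level on all arrays, and 0 passed the test in any comparison by limma. In resolving lung against control lung 8 of the 9 were higher, with a median difference of 1.00. There 3 (Adgre1, Cd68 and Csf1r) were higher at an unadjusted limma p under 0.05, against 7.61% of all genes. In resolving lung against resolving spleen 1 had such a p, and in resolving spleen against control lung 2, against 18.8% of all genes in each. Siglecf, which marks alveolar macrophages, exceeded the dim level on none. Marco, of the same list, exceeded it on the first resolving lung array alone, at 5.08.

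The CD8 T and NK cell list was lowest there, at a mean over 5 measured markers of 4.34, against 5.33 and 5.53 in the other resolving lung arrays, 4.86 to 5.62 in resolving spleen and 5.37 to 5.67 in control lung. Over 8 dendritic cell markers the mean was 2.67 to 3.18 in resolving lung, 2.64 to 2.87 in resolving spleen and 2.71 to 2.95 in control lung. The value of 3.18 was that of the first resolving lung array. Of the 8, Flt3, Zbtb46, Xcr1, Clec9a, Siglech and Batf3 were above the dim level on no array. Itgax exceeded it on 2 arrays, the first of resolving lung (5.16) and the first of control lung (3.62). Cd209a exceeded it on the first resolving lung array alone (3.54). Over 10 B cell markers the mean was 4.19 to 4.47 in resolving lung, 5.30 to 6.58 in resolving spleen and 4.91 to 5.10 in control lung. Of these, 5 fell in resolving lung against resolving spleen, where 2.82% of all genes fell. Over 10 epithelial markers the mean was 4.89 to 5.60 in resolving lung, 3.01 to 3.88 in resolving spleen and 6.25 to 7.35 in control lung. Single markers reached far higher values. Sftpc was 8.48, 7.24 and 7.17 in resolving lung, 2.75, 3.87 and 4.86 in resolving spleen and 11.04, 9.95 and 9.71 in control lung. Scgb1a1 was 9.78, 8.59 and 9.67 in resolving lung, 3.41, 6.26 and 7.41 in resolving spleen and 10.73, 9.77 and 9.41 in control lung. Of the 10, 3 fell in resolving lung against control lung (0.323% of all genes). In resolving lung against resolving spleen 4 rose (2.64% of all genes), and 6 fell in resolving spleen against control lung (2.67% of all genes). Over 7 measured neutrophil markers the mean was 3.44 to 4.58 in resolving lung, 3.75 to 4.02 in resolving spleen and 3.08 to 3.93 in control lung. Over 6 endothelial markers it was 3.75 to 4.92 in resolving lung, 3.34 to 3.46 in resolving spleen and 3.42 to 5.35 in control lung. The value of 5.35 was that of the first control lung array, against 3.77 and 3.42 in the others of its group. That array was also the highest of control lung for the epithelial (7.35), fibroblast (3.56), macrophage (4.91), neutrophil (3.93) and dendritic cell (2.95) lists and for Il10 (6.26). It was the lowest of control lung for the B cell (4.91) and CD8 T and NK cell (5.37) lists. The part that RNA of other cells has in the values of Il10, Ebi3, Fgl2 and Il10ra was not tested.

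**Figure D4:**
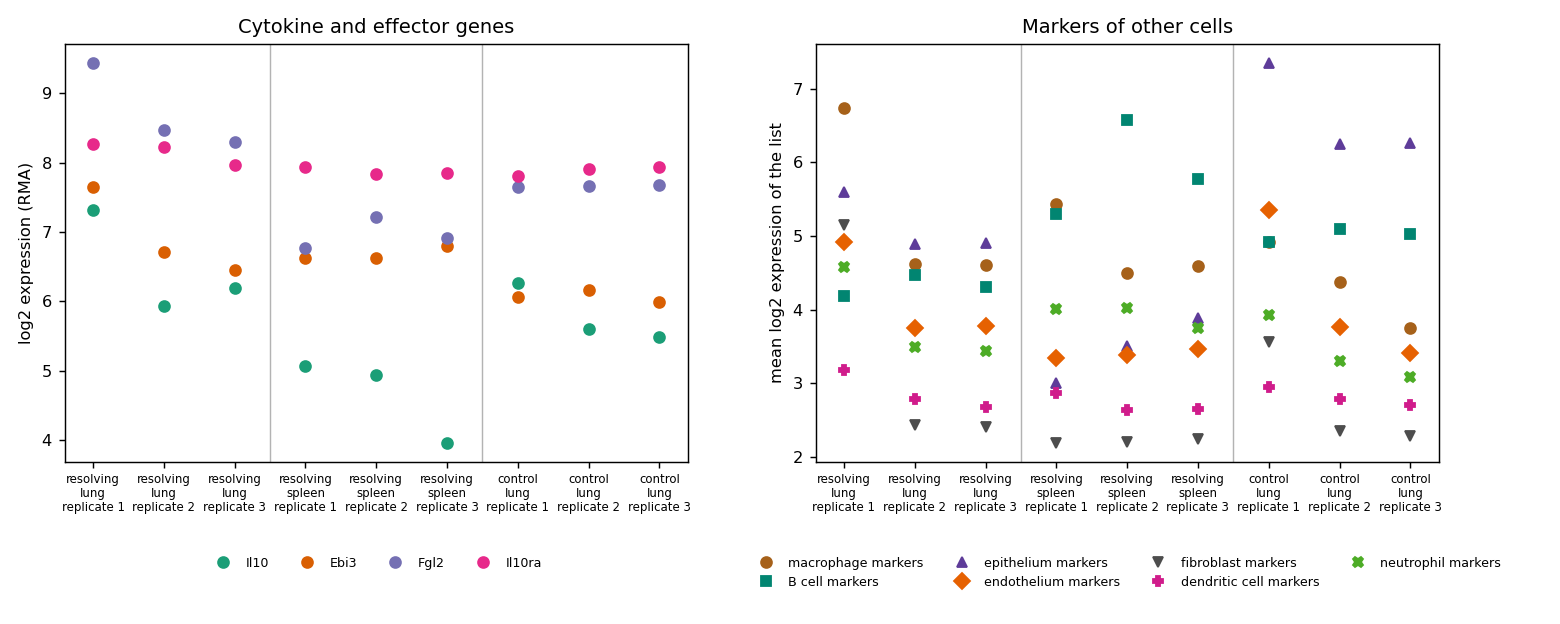
Left, log2 expression of Il10, Ebi3, Fgl2 and Il10ra on each of the 9 arrays; right, the mean log2 expression of marker lists of other cells on the same arrays. The first resolving lung array was highest for all 4 genes and for the macrophage list (6.74), while the B cell list was highest in the 3 resolving spleen arrays.

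Downstream of the IL-10 receptor, transcripts of the signalling chain itself did not pass the test, and 2 target genes differed between resolving spleen and control lung. Of 10 listed genes 9 were measured. None passed in resolving lung against control lung (limma, 2 at an unadjusted p under 0.05, against 14.0% of all genes). In resolving lung against resolving spleen 1 rose, where 2.64% of all genes rose. In resolving spleen against control lung 1 rose and 1 fell, where 3.49% of all genes rose and 2.67% fell. The receptor kinase gene Jak1 lay between 10.37 and 10.75 on all arrays and differed by -0.20 between resolving lung and control lung (SE 0.08, limma adjusted p = 0.308). Tyk2, the other receptor kinase, differed by 0.13 there (limma adjusted p = 0.728), and Stat3, the transcription factor they activate, by -0.01 (SE 0.06, limma adjusted p = 0.967). Il4ra, an IL-4 receptor chain whose gene is a known IL-10 target in macrophages, differed by -0.42 (limma adjusted p = 0.262).

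Socs3, a feedback inhibitor induced through STAT3, was higher in the spleen. Its values were 7.58, 7.76 and 7.73 in resolving lung, 8.28, 8.19 and 8.10 in resolving spleen and 7.76, 7.22 and 7.37 in control lung, so the spleen arrays exceeded all lung arrays. The difference between resolving spleen and control lung was 0.74 (SE 0.13, limma adjusted p = 0.0160), and it was not called without spleen replicate 1 or 2 or control lung replicate 3 (limma adjusted p up to 0.0621). Nfil3, a transcription factor gene induced by IL-10 and itself a regulator of Il10, was 7.41, 7.43 and 7.14 in resolving lung, 5.42, 5.99 and 5.63 in resolving spleen and 7.70, 7.47 and 7.98 in control lung. Nfil3 was higher in resolving lung than in resolving spleen by 1.65 (SE 0.17, limma adjusted p = 0.0028) and differed by -2.04 between resolving spleen and control lung (limma adjusted p = 0.000751), with all 9 omissions of an array keeping both calls.

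Of the transcription factors that act on Il10, 4 were higher in resolving lung than in resolving spleen, as Il10 was. Of 11 listed, 10 were measured. In resolving lung against resolving spleen 4 rose and 0 fell (Nfil3, Prdm1, Ahr and Bhlhe40, median of the list 0.26), where 2.64% of all genes rose and 2.82% fell. In resolving spleen against control lung 1 rose and 3 fell (median -0.26), where 3.49% of all genes rose and 2.67% fell. None passed in resolving lung against control lung (limma, 3 at an unadjusted p under 0.05, against 14.0% of all genes, median 0.07). Across the alternative settings the list held 1 to 5 calls in resolving lung against resolving spleen and 2 to 6 in resolving spleen against control lung.

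Ahr, the aryl hydrocarbon receptor, was 8.03, 7.71 and 7.63 in resolving lung, 6.38, 6.85 and 6.78 in resolving spleen and 7.43, 7.20 and 7.46 in control lung. It was higher in resolving lung than in resolving spleen by 1.12 (SE 0.15, limma adjusted p = 0.0065). Its difference of -0.69 between resolving spleen and control lung passed (limma adjusted p = 0.0363), but not in 7 of the 9 omissions of an array (limma adjusted p up to 0.116). Prdm1, which encodes BLIMP-1, a repressor that marks effector Tregs, was 8.45, 7.36 and 7.50 in resolving lung, 6.75, 6.77 and 6.57 in resolving spleen and 7.33, 7.36 and 7.45 in control lung. Its difference of 1.07 between resolving lung and resolving spleen (SE 0.25, limma adjusted p = 0.0451) was not called in 7 of 9 omissions (limma adjusted p up to 0.145) or with the replicate block (limma adjusted p = 0.0583), although the 3 spleen arrays were the lowest of all.

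Bhlhe40, which in T helper cells represses Il10, was 9.24, 9.21 and 8.46 in resolving lung, 7.56, 7.97 and 7.53 in resolving spleen and 9.39, 9.26 and 9.15 in control lung. The spleen arrays were lower than every lung array. It was 1.28 higher in resolving lung than in resolving spleen (SE 0.21, limma adjusted p = 0.0139, not called without spleen replicate 1 or 3, at 0.0591 and 0.0565) and differed by -1.58 between resolving spleen and control lung (limma adjusted p = 0.00508). Egr2, an early-response factor linked to IL-10 in other CD4 T cells, went the other way. Its values were 4.75, 3.24 and 4.01 in resolving lung, 5.25, 5.83 and 5.57 in resolving spleen and 3.90, 4.21 and 3.18 in control lung. It exceeded the dim level on 2 of 3 arrays in each lung group. The difference between resolving spleen and control lung was 1.79 (SE 0.39, limma adjusted p = 0.0334, not called in 6 of 9 omissions of an array). Between resolving lung and resolving spleen it was -1.55 (limma adjusted p = 0.0603), and it passed at -1.93 without the first resolving lung array (limma adjusted p = 0.0227). Batf and Gata3 differed by 0.58 and -0.21 between resolving lung and control lung (limma adjusted p = 0.233 and 0.317), and by 0.35 and -0.13 without the first resolving lung array.

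The rest of the IL-10 cytokine family lay mostly at or below the dim level. All 9 listed genes were measured, 7 were above the dim level on no array, and none passed in any comparison (limma, 0 at an unadjusted p under 0.05). Il22, a cytokine of the same family, was the only one above the dim level on all 9 arrays, between 4.55 and 5.13, and it differed by 0.04 between resolving lung and control lung (limma adjusted p = 0.920).

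Among the partners and receptors of the IL-12 family, to which EBI3 and the Il12a product belong, receptor chains differed between groups and the ligand chains Il23a and Il27 stayed at or below the dim level. Of 9 listed genes 8 were measured, and Il12b matched no row. None passed in resolving lung against control lung (limma, 4 at an unadjusted p under 0.05, 2 of them higher, against 14.0% of all genes). In resolving lung against resolving spleen 1 fell, where 2.82% of all genes fell. In resolving spleen against control lung 1 rose and 1 fell, where 3.49% of all genes rose and 2.67% fell. Il23a encodes the chain specific to IL-23. Il23r, a receptor gene of the list, was 5.80, 4.19 and 4.30 in resolving lung, 3.42, 3.05 and 3.44 in resolving spleen and 3.69, 3.46 and 3.59 in control lung. It was above the dim level on 8 of 9 arrays. Its differences of 1.19 from control lung and 1.46 from resolving spleen did not pass (limma adjusted p = 0.208 and 0.0662). The latter passed at 0.94 without the first resolving lung array (limma adjusted p = 0.0109).

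Il27ra, the receptor chain specific to IL-27, was highest in the spleen. Its values were 9.53, 9.65 and 9.52 in resolving lung, 10.12, 10.06 and 10.05 in resolving spleen and 9.34, 9.61 and 9.46 in control lung. It differed by -0.51 between resolving lung and resolving spleen (SE 0.08, limma adjusted p = 0.0112) and by 0.61 between resolving spleen and control lung (limma adjusted p = 0.00477), and both calls held in all 9 omissions of an array. Il6st, which encodes gp130, a chain of the receptors for IL-27 and IL-35, was 8.88, 9.47 and 9.61 in resolving lung, 9.79, 9.75 and 9.88 in resolving spleen and 10.02, 10.04 and 9.84 in control lung. All its resolving lung arrays were below the others, and its difference of -0.65 from control lung did not pass (SE 0.17, limma adjusted p = 0.144; -0.43 without the first resolving lung array).

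Il12rb2, a chain of the receptors for IL-12 and IL-35, was 3.89, 3.06 and 3.43 in resolving lung, 2.99, 3.22 and 3.12 in resolving spleen and 4.04, 3.97 and 4.30 in control lung. The resolving spleen arrays were all at or below the dim level, so control lung was at least 1.65-fold higher than resolving spleen (limma adjusted p = 0.0216, not called in 5 of 9 omissions of an array). Il12rb1, the chain shared by the receptors for IL-12 and IL-23, was 7.62, 6.55 and 6.20 in resolving lung, 6.32, 6.21 and 6.30 in resolving spleen and 4.91, 5.29 and 5.46 in control lung. Every array of both LPS groups exceeded every control lung array, as for Ebi3, and the difference of 1.57 between resolving lung and control lung did not pass (SE 0.32, limma adjusted p = 0.0823; 1.16 and 0.0520 without the first resolving lung array).

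The receptors through which FGL2 acts did not pass the test. Of 6 listed genes 5 were measured, and 3 of them (Fgl1, Fga and Fgb, fibrinogen chains and a relative) were above the dim level on no array. None passed in any comparison (limma, with 1, 2 and 0 at an unadjusted p under 0.05 in resolving lung against control lung, resolving lung against resolving spleen and resolving spleen against control lung). Of all genes, 14.0%, 18.8% and 18.8% had such a p in these comparisons. Fcgr2b, the inhibitory Fc receptor, was 7.56, 5.32 and 5.17 in resolving lung, 4.55, 4.91 and 4.72 in resolving spleen and 5.0, 4.75 and 4.58 in control lung. The first resolving lung array was again the highest, and the difference from control lung was 1.24 (SE 0.55, limma adjusted p = 0.365), and 0.47 without that array (limma adjusted p = 0.271). Fcgr3, an activating Fc receptor, differed by 1.05 (SE 0.36, limma adjusted p = 0.241), and by 0.62 without that array (limma adjusted p = 0.376).

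**Figure D5:**
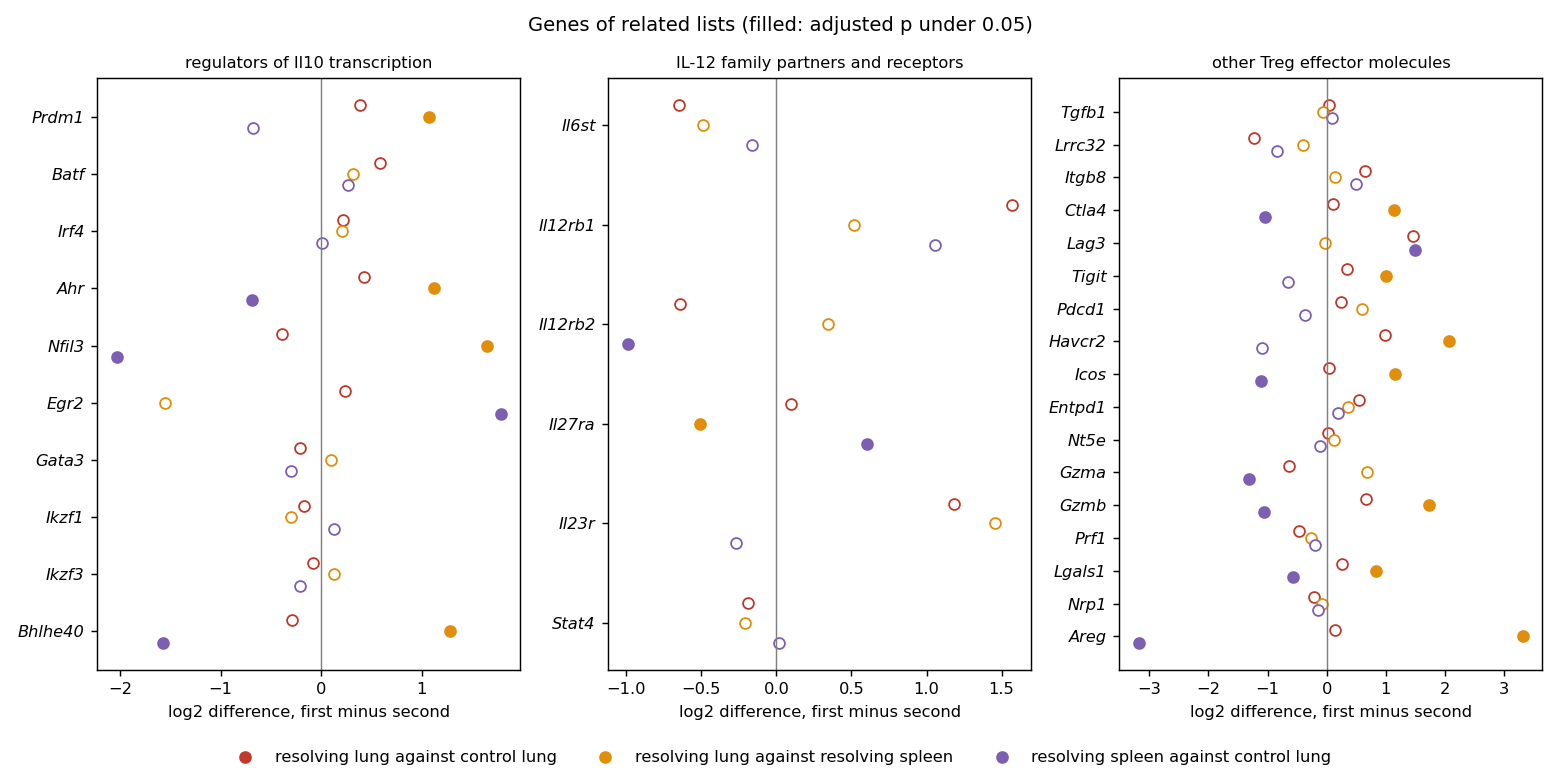
Log2 differences (horizontal axis, first group minus second) of regulators of Il10, IL-12 family genes and other Treg effectors (panels) in the 3 comparisons (colours); filled points passed an adjusted p of 0.05. Filled points lie in the comparisons with resolving spleen, among them Nfil3 at 1.65 and -2.04 and Il27ra at -0.51 and 0.61.

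Of the other effector molecules of Tregs, 7 were higher in resolving lung than in resolving spleen, as Il10 and Fgl2 were, and 10 did not pass the test. Of 18 listed, 17 were measured, and Penk matched no row. In resolving lung against resolving spleen 7 rose and 0 fell (median 0.60), where 2.64% of all genes rose and 2.82% fell. In resolving spleen against control lung 1 rose and 6 fell (median -0.57), where 3.49% of all genes rose and 2.67% fell. In resolving lung against control lung none passed, where 0.457% of all genes did (limma, median 0.15). There 8 had an unadjusted limma p under 0.05, of which 5 were higher, against 14.0% of all genes. The count in resolving spleen against control lung, 7 in all, was 11 without the first resolving lung array and ranged from 4 to 11 over the alternative settings. In the fit of resolving lung and resolving spleen alone with the replicate number as a block, 2 effectors (Ctla4 and Areg) and 1 regulator of Il10 (Nfil3) stayed called.

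Areg, which encodes amphiregulin, a growth factor of tissue repair, had 8.82, 8.23 and 7.71 in resolving lung, 5.19, 5.38 and 4.20 in resolving spleen and 7.95, 8.14 and 8.23 in control lung. It was 3.33 higher in resolving lung than in resolving spleen (limma adjusted p = 0.00274), while the lung groups overlapped. Ctla4, an inhibitory receptor, rose by 1.14 (limma adjusted p = 0.00136) and Icos, a costimulatory receptor, by 1.16 (limma adjusted p = 0.00176) in the same comparison. Gzmb, a cytotoxic protease, rose by 1.73 (limma adjusted p = 0.00532), Havcr2, the inhibitory receptor TIM-3, by 2.07 (limma adjusted p = 0.00777) and Lgals1, galectin-1, by 0.83 (limma adjusted p = 0.00841). Tigit, another inhibitory receptor, rose by 1.00 (limma adjusted p = 0.0464), a call lost in 7 of 9 omissions of an array.

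The same list in resolving spleen against control lung held Ctla4, Icos, Gzma, Gzmb, Lgals1 and Areg as lower and Lag3 as higher. Areg differed by -3.18 there (limma adjusted p = 0.00189), Gzma, a granule protease, by -1.32 (limma adjusted p = 0.00492), Icos by -1.11 (limma adjusted p = 0.000775) and Ctla4 by -1.04 (limma adjusted p = 0.000443), and these calls held in all 9 omissions of an array. The Gzmb and Lgals1 calls were lost in 5 and 6 omissions. Lag3, an inhibitory receptor that binds MHC class II, was 6.57, 5.80 and 5.52 in resolving lung, 5.73, 6.25 and 6.00 in resolving spleen and 4.56, 4.11 and 4.84 in control lung. Both LPS groups exceeded control lung on every array, with differences of 1.46 for resolving lung (SE 0.29, limma adjusted p = 0.0739) and 1.49 for resolving spleen (limma adjusted p = 0.0204, not called in 4 of 9 omissions). Lrrc32, which encodes GARP, the surface anchor of latent TGF-beta on Tregs, differed by -1.24 between resolving lung and control lung (limma adjusted p = 0.105), and passed at -0.85 without the first resolving lung array (limma adjusted p = 0.0262). Its values were 8.66, 9.85 and 9.79 in resolving lung, 9.79, 9.79 and 9.93 in resolving spleen and 10.69, 10.75 and 10.58 in control lung. Both LPS groups thus lay below control lung on every array. Between resolving lung and resolving spleen Lrrc32 differed by -0.40 (limma adjusted p = 0.516), and by -0.015 without the first resolving lung array (limma adjusted p = 0.961).

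Of 9878 named genes above the dim level on at least 3 arrays, those whose profile lay nearest to each gene were found by the mean absolute difference of log2 values over the 9 arrays after centring each gene on its own mean. Nearest to Fgl2 were Pmp22 (0.15), Gpr25 (0.16) and Id2 (0.16), and nearest to Il10 were Mt1 (0.16), Ccl9 (0.21) and Ccrl2 (0.26). Nearest to Ebi3 were Cd38 (0.081), Mfsd2a (0.094) and Cebpa (0.11), and nearest to Il10ra were Med30 (0.035), Ide (0.042) and Abcb8 (0.043). Id2, for example, averaged 9.51 in resolving lung, 7.97 in resolving spleen and 8.79 in control lung, and Cd38 averaged 6.72, 6.53 and 5.75 in those groups. These 9 arrays are the same ones behind every value above, and a gene that varies little is near to many others, so the distances only describe the profiles.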

How the data were processed

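RNA of sorted CD4+ GFP+ Tregs was hybridised to 9 arrays, 1 per sample. Groups were taken from the sample titles. The values were log2 expression as the authors deposited them, 31351 rows by 9 columns. The submitters' processing notes list RMA (background correction, normalization between arrays and probe summary), Partek and Affymetrix Expression Console, and the sources used here gave no versions. The values ran between 1.07 and 12.85, which is the basis for the log2 scale. RMA makes array distributions alike, removes a change shared by most genes and compresses changes of dim genes. Arrays give no read depth, so the number of arrays limits the precision.

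Rows were named through an NCBI RefSeq gene list: 21057 matched 1 symbol, 0 several, and 10294 (32.8%) stayed unnamed and out of the tests. Where a gene had more than 1 row (34 genes), its brightest row on average was kept, leaving 21023 genes, with no filter on dim genes. All 9 arrays were fitted in 1 model of group means by limma 3.58.1 in R 4.3.3 (lmFit, then eBayes without a trend or a block; 6 residual and 2.29 prior degrees of freedom), and p-values were adjusted over all 21023 genes. Where a gene was at or below the dim level on every array of 1 group, the printed fold is the brighter group's mean against the mean dim level, as a lower limit.

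The 6 genes, the gene lists and the tests were chosen with earlier results of these data known. Named genes were all 6, the partner subunits and receptors, every gene of the related lists that passed the threshold in some comparison, the 3 of each list with the smallest p in resolving lung against control lung, some of the markers with the widest range, and the 3 nearest profiles of each gene. A gene that this rule names is not reported here. Alternatives changed the normalization, filter, spread model, samples fitted, replicate block and rows tested, and left out each array in turn. Alternatives without the first array of both lung groups, and with the replicate block in resolving lung and resolving spleen alone, were chosen after seeing the data. The block was checked because deviations from the group means correlated at 0.18 to 0.23 between resolving lung and resolving spleen arrays of the same number in the titles (3 of 3 over 0.1) and at -0.18 to 0.021 between other numbers. Deviations from a mean of 3 arrays cancel out within a group, so high values for the same numbers lower those for other numbers. The other numbers are thus no separate support. The numbers were treated as a possible pairing of these groups, from the data, since the labels do not say that the arrays share an animal. The labels describe the spleen replicates 2 and 3 by the same name, but their titles differ, and their values differed by an SD of 0.218 (0.232 to 0.420 in the other pairs of a group), so both were kept. For Il10, Il10ra and Il10rb no promoter is shown.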

Additional observations from a re-analysis of the deposited data

How the results depend on the processing

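Over 256 alternative values of the 12 differences of Il10, Ebi3, Fgl2 and Il10ra, 226 kept their direction and their side of the threshold, 16 lost the call, 7 gained one and 7 changed sign. Of 579 values of the other 27 called differences of named genes, 485 kept the call, 94 lost it and 0 changed sign. With 3 arrays per group the precision is limited. Unless stated, the cause of a change was not tested.

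For resolving lung against control lung, 96 genes were called. The count was 63 with array weights, 235 among genes above the dim level in at least 3 arrays (fewer genes tested), 0 with only the 2 groups fitted or with unmoderated variance (limma; 2943 genes had an unadjusted p under 0.05 in the full fit), 15 without the first array of both lung groups, and 4 to 212 with 1 array left out. In resolving lung against resolving spleen 1148 genes were called, 704 with the 2 groups alone, 387 with unmoderated variance and 508 to 1131 with 1 array left out. In resolving spleen against control lung 1295 were called, 553 with unmoderated variance and 681 to 1793 with 1 array left out.

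Of the 5 genes, 2 were called in resolving lung against resolving spleen, 1 with all rows tested, with the 2 groups alone or without the first array of both lung groups, 0 with unmoderated variance (3 had an unadjusted limma p under 0.05 in the full fit), and 1 to 2 with 1 array left out. Of all 21023 genes, 1004 were called in that comparison without both first arrays, and 1130 of 31351 rows with all rows tested. In resolving spleen against control lung, 0 were called, but 2 with the 2 groups alone or without both first arrays, and 0 to 2 with 1 array left out. With the 2 groups alone 1446 of all 21023 genes were called there, and 1298 without both first arrays. The Il10 difference of resolving lung over resolving spleen lost its call with all rows tested (1.82, limma adjusted p = 0.0582), the 2 groups alone (1.82, 0.109), unmoderated variance (1.82, 0.144), without both first arrays (1.41, 0.0636) and in all 9 omissions (1.41 to 2.10). That of Fgl2 lost it with unmoderated variance (1.77, limma adjusted p = 0.0549). That of Ebi3 became -0.095 without both first arrays and ranged from -0.095 to 0.50 over the omissions. That of Il10ra ranged from 0.22 to 0.37.

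In resolving spleen against control lung, the Ebi3 difference passed with the 2 groups alone (0.60, limma adjusted p = 0.0114) and without both first arrays (0.60, 0.0303), and ranged from 0.55 to 0.65 over the omissions. The Fgl2 difference passed under the same alternatives (-0.70, limma adjusted p = 0.0220, and -0.71, 0.0335), with -0.82 to -0.60 over the omissions. The Il10ra difference was 0.020 with each array's median subtracted and -0.049 to 0.021 over the omissions.

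With the replicate number as a block over all 9 arrays, 15 genes were called in resolving lung against control lung. The Il10 and Fgl2 differences between resolving lung and resolving spleen kept their calls (limma adjusted p = 0.0168 and 0.0228). With the replicate block in a fit of resolving lung and resolving spleen alone, 175 genes and 0 of the 5 were called (limma; 3 of the 5 had an unadjusted p under 0.05), and Il10 (1.82, limma adjusted p = 0.0909) and Fgl2 (1.77, 0.102) lost their calls. With control lung, 1 of 3 same-numbered pairs of each other group correlated above 0.1. The values were 0.052 to 0.27 with resolving lung and -0.079 to 0.14 with resolving spleen. A cut at 0.1 cannot decide whether the numbers pair those groups. In resolving spleen against control lung the block ended 5 calls of other genes: Ahr, Egr2, Gzmb, Lgals1 and Il2ra.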
